A study of Mus musculus with 4 samples.

Results

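The SLAM receptors are a family of cell surface proteins on blood cells that mostly bind each other between neighbouring cells, and SAP (encoded by Sh2d1a) and the kinase Fyn carry their signal in T cells. The 9 genes examined here were chosen by name: 7 receptors (Slamf1, Slamf6, Slamf7, Cd84, Ly9, Cd244 and Cd48), Sh2d1a and Fyn. They are 9 of the 22479 gene symbols used, each was found on 1 row of every file, and all 9 are accounted for below. RNA was sequenced from 4 libraries of sorted mouse spleen cells on a C57BL/6 background, 1 library per group. The sorted populations invariant natural killer T (iNKT) cells, taken with CD1d tetramers loaded with PBS-57, and CD44-high CD4+ T cells (CD44hi), CD4+ T cells that have mostly met antigen. Both were taken from wild-type animals (WT) and from animals of the genotype Ezh2fl/fl CD4-Cre (KO). Here Cre, driven by the CD4 promoter in developing T cells, is meant to remove the floxed part of Ezh2, the catalytic subunit of Polycomb repressive complex 2. The labels used here give no age, no sex and no number of pooled mice.

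In the thymus, iNKT cells are selected by CD1d on other thymocytes rather than on epithelium, and SLAM receptors on both thymocytes engage each other during that contact. SAP binds tyrosine motifs in the receptor tails, brings in Fyn, and excludes the phosphatases that the same tails can otherwise recruit. Mice and people without SAP have almost no iNKT cells, and SAP is also needed for follicular helper T cells. Slamf1, Slamf6, Cd84 and Ly9 bind themselves, whereas Cd48 has no signalling tail and is the ligand of Cd244 and, in mice, of Cd2.

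Since a group is a single library, differences have no replicate check and neither a test nor a p-value was computed. Values are FPKM, which divide fragments by transcript length and by library depth, so levels can be compared between genes. A comparison counted a gene as measured when either library reached 1 FPKM, and as higher or lower when log2(FPKM + 1) differed by 2-fold. Intervals are 95% exact intervals that cover counting error only, from fragments estimated by the steps between low FPKM values. For a transcript of 2 kb, 1 fragment was worth 0.107 and 0.0988 FPKM in the WT and KO iNKT libraries and 0.0290 and 0.0218 FPKM in the deeper CD44hi ones. Ezh2 itself had 15.3 (WT) and 16.8 (KO) FPKM among iNKT cells and 28.9 (WT) and 18.5 (KO) among CD44hi cells. Values over the whole transcript include exons outside the floxed part, so they do not check the deletion and the groups are called by their labels. The Y-linked gene Ddx3y was at 11.5 FPKM in the WT CD44hi library and at 0.0045 or less in the others, while Xist, made in female cells, was at 46.8 to 80.0 in all 4, so RNA of male cells was seen in 1 library only. All 8 T cell genes checked were well above 1 FPKM in all 4 libraries, with Cd3e at 307 to 357 FPKM. Their levels were not all even: Cd247, Cd4 and Cd5 were lower in WT iNKT than in WT CD44hi, and in KO Cd4 was lower and Cd28 higher in iNKT. Cd4 reached 98.8 (WT) and 101 (KO) FPKM among iNKT cells and 405 (WT) and 252 (KO) among CD44hi cells. Of the 2 CD8 genes, Cd8a was at 3.27 FPKM or less, and Cd8b1 was below 1 FPKM in both iNKT libraries but at 9.87 (WT) and 13.8 (KO) in the CD44hi ones. Zbtb16, the transcription factor that defines iNKT cells, reached 28.2 (WT) and 63.1 (KO) FPKM among iNKT cells, and 4.30 (WT) but 41.4 (KO) among CD44hi cells. The KO CD44hi library thus holds this iNKT gene at an iNKT level, but the other iNKT markers listed did not all follow it. Klrb1c had 177 (WT) and 96.2 (KO) FPKM among iNKT cells and 14.9 (WT) and 58.5 (KO) among CD44hi cells. Cxcr6 had 468 (WT) and 94.6 (KO) among iNKT cells and 69.6 (WT) and 126.7 (KO) among CD44hi cells. Il2rb had 814 (WT) and 198 (KO) among iNKT cells and 178 (WT) and 102 (KO) among CD44hi cells. Whether the sort of CD44hi cells left out those that bind the tetramer is not stated in the labels. In RNA from sorted bulk cells, fewer cells of a type and less RNA per cell cannot be told apart.

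The 7 receptors lie side by side on chromosome 1 (GRCm38), within 394 kb from the start of Cd244 to the end of Slamf6. In order, GENCODE M21 places Cd244 at 171559193 to 171609746, Ly9 at 171588624 to 171607410, Slamf7 at 171632403 to 171653035 and Cd48 at 171682009 to 171705258. Slamf1 follows at 171767127 to 171801184, Cd84 at 171839697 to 171890718 and Slamf6 at 171917515 to 171953170. Ly9 and Slamf7 are on the minus strand and the other 5 on the plus strand. Fyn is on chromosome 10 (39368855 to 39565381, plus strand) and Sh2d1a on chromosome X (42502453 to 42529330, plus strand). Cd244 and Ly9 overlap on opposite strands and the strand setting is not given in the sources used here. In the WT iNKT library Ly9 was nevertheless at 122.9 FPKM with Cd244 at 0.0545. Words of 50 bases from the members' transcripts were absent from other genes in 6 of the 9, and shared for 1.78% (Slamf7), 0.974% (Sh2d1a) and 0.266% (Cd84) of positions.

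For Cd48, Slamf7, Slamf6 and Slamf1, the members whose RNA differed at least 2-fold between genotypes in 1 of the cell types, the 250 bases before the start site are shown 5′ to 3′, from RefSeq on GRCm38.p6. Capitals mark matches on either strand to a T-box motif (GGTGTG), a TCF motif (CTTTGA), a RUNX motif (TGTGGT), a MYB motif (AACTG or AACGG), an EGR motif (GTGGGCG) or an ETS motif (GGAAG). The Slamf7 window lies before a start site inside the annotated gene, not before the start of its longest transcript.
Cd48, chr1:171681742-171681991, plus strand: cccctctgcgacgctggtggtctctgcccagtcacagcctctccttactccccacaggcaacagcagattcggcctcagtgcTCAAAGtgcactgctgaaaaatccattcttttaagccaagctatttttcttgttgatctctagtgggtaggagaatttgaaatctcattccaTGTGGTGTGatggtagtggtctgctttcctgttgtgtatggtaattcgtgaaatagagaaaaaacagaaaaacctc
Slamf7, chr1:171649000-171649249, minus strand: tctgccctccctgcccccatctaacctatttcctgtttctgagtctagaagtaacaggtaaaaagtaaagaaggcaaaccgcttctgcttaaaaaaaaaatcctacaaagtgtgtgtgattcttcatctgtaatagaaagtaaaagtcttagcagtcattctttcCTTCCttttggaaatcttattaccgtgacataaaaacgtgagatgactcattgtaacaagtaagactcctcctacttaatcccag
Slamf6, chr1:171917212-171917461, plus strand: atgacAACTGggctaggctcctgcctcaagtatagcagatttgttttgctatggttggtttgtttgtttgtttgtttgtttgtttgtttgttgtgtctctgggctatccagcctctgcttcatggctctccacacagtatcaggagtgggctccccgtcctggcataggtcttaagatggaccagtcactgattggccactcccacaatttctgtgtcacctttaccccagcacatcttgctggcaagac
Slamf1, chr1:171766882-171767131, plus strand: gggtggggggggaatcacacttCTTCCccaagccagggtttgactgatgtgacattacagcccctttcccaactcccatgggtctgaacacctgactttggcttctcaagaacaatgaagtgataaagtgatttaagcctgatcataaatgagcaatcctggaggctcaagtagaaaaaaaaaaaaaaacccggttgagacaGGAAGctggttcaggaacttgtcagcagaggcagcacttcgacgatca

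The Cd48 window held a RUNX motif with its first base at position -76 from the start site and a T-box motif at -73, which overlap in 1 run of capitals, and a TCF motif at -168. Of 32851 RefSeq windows of this length, 14.0% held the RUNX motif, 16.3% the T-box motif and 13.8% the TCF motif. Slamf7 held 1 ETS motif and Slamf1 held 2, a motif found in 64.1% of windows, and Slamf6 held 1 MYB motif, found in 48.6%. None of the 4 held the EGR motif (7.02% of windows). Among members with no 2-fold call between genotypes, Fyn held T-box and TCF motifs, Cd84 RUNX and MYB motifs and Cd244 a MYB motif. All 6 receptors with a window had fewer CpG than the median of 6 over all windows. The counts were 1 in Slamf6, 2 in Cd244, 3 in Slamf1, Slamf7 and Cd84 and 4 in Cd48. At least 5 CpG were held by 55.6% of all windows. Fyn had 21. A match is a description of letters and says nothing of binding. In all, 7 of the 9 members had a window.

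**Figure D1:**
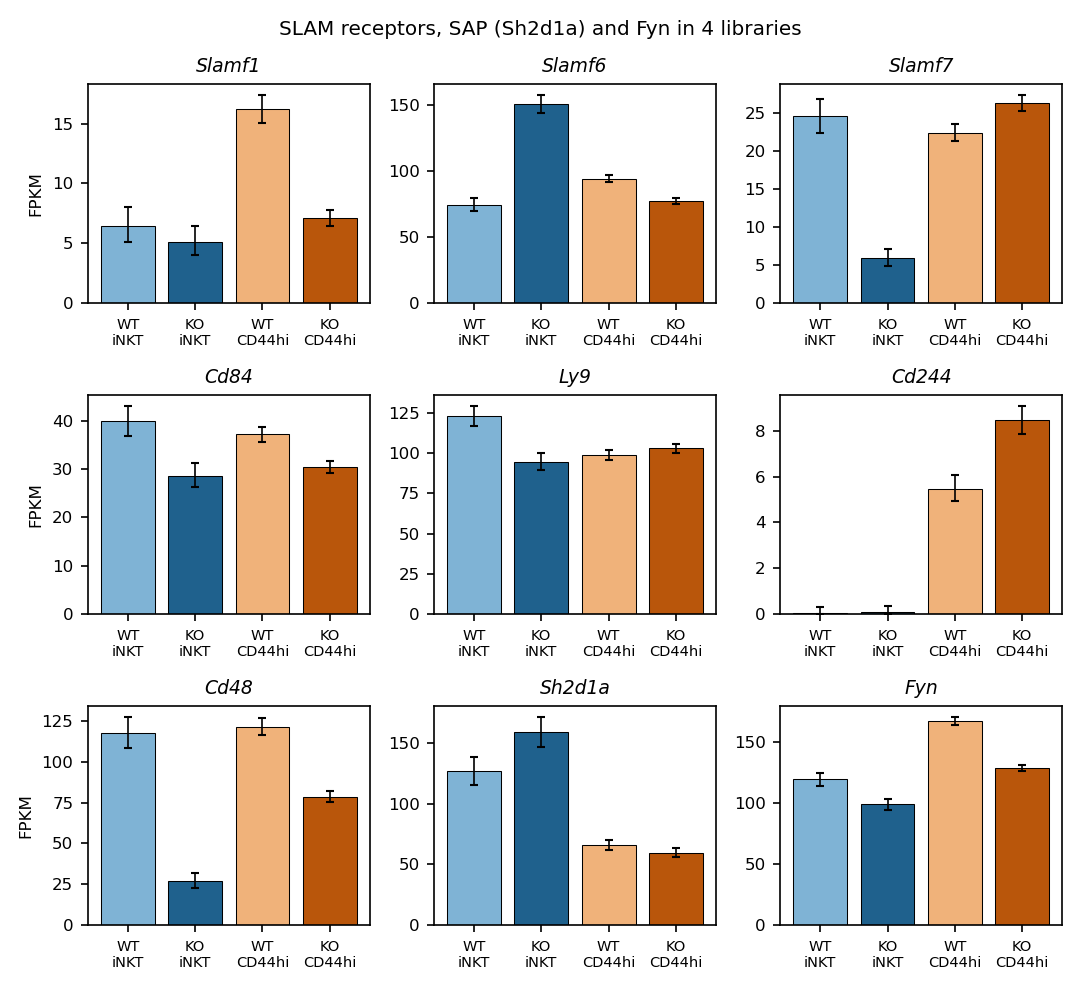
FPKM (y axis, from 0) of each of the 9 genes in the 4 libraries, WT and KO iNKT in blue and WT and KO CD44hi in orange; bars are single libraries and error bars are 95% exact Poisson intervals of the estimated fragments (counting error only). Slamf7 and Cd48 are lowest in KO iNKT (5.93 and 26.9 FPKM), Slamf6 is highest there (150.6), and Cd244 is near 0 in both iNKT libraries.

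In iNKT cells the KO and WT libraries differed most in Cd48, Slamf7 and Slamf6. Of 8 measured members, 2 were lower in KO iNKT (Cd48 and Slamf7) and 1 was higher (Slamf6). Among all 10818 genes measured in this pair, 9.43% passed the same rule, 6.08% higher and 3.35% lower. The median log2 difference was -0.33 over the 8 members and 0.05 over all measured genes.

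Cd48, the ligand for Cd244 and Cd2 that is displayed on nearly all white blood cells, had 117.8 (WT) and 26.9 (KO) FPKM among iNKT cells and 121.6 (WT) and 78.5 (KO) among CD44hi cells. The KO iNKT library stood alone at the bottom, while the WT iNKT and WT CD44hi libraries were within counting error of each other (ratio 1.03, interval 0.943 to 1.13). In KO iNKT Cd48 was 4.38-fold lower than in WT iNKT (interval 3.65 to 5.25; log2 difference -2.09). Its place among genes at 1 FPKM or more went from above 95.7% of them in WT iNKT to above 73.7% in KO iNKT.

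Slamf7, also called CRACC, a receptor that binds itself and signals mainly in NK cells and other cells with the adaptor EAT-2, had 24.6 (WT) and 5.93 (KO) FPKM among iNKT cells and 22.4 (WT) and 26.4 (KO) among CD44hi cells. It was 4.14-fold lower in KO than in WT iNKT (3.40 to 5.10; log2 difference -1.88). The 3 other libraries lay close together, with ratios between neighbours of 1.07 and 1.10 whose intervals included 1.

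Slamf6, also called Ly108, is a self-binding receptor that acts with Slamf1 in iNKT selection. Its iNKT levels were 74.3 (WT) and 150.6 (KO) FPKM, and its CD44hi levels 94.2 (WT) and 76.9 (KO) FPKM, so KO iNKT stood alone at the top. In KO iNKT it was 2.03-fold higher than in WT iNKT (1.87 to 2.20). The log2 difference of 1.01 lies just past the 2-fold rule, and it fell just inside, at 0.99, when libraries were rescaled by the median ratio of 7214 genes or by CD3 chain RNA. WT iNKT and KO CD44hi shared the lowest level (ratio 1.03, 0.962 to 1.11).

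The makeup of the receptor RNA differed between the iNKT libraries. Slamf6 made up 19.3% of the summed FPKM of the 7 receptors in WT iNKT and 48.3% in KO iNKT, while Cd48 made up 30.5% and 8.63%. The summed FPKM itself was 386 in WT and 312 in KO iNKT. Within a library, Cd48 FPKM was 1.58 times Slamf6 FPKM in WT iNKT and 0.179 times in KO iNKT, against 1.29 and 1.02 times in WT and KO CD44hi.

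Ly9, Cd84 and Slamf1 stayed within 2-fold between the iNKT libraries. Ly9, an inhibitory member of the family in innate-like lymphocytes, had 122.9 (WT) and 94.5 (KO) FPKM among iNKT cells and 98.7 (WT) and 102.9 (KO) among CD44hi cells, the narrowest range of the 9 genes (highest to lowest ratio 1.30). Cd84, a self-binding receptor that supports contacts of follicular helper T cells with B cells, had 39.9 (WT) and 28.7 (KO) FPKM among iNKT cells and 37.2 (WT) and 30.4 (KO) among CD44hi cells, lower in KO by 1.39-fold in iNKT (1.24 to 1.56) and 1.22-fold in CD44hi (1.16 to 1.30). Slamf1 (CD150), the founding member, was among the lowest receptors of iNKT cells, at 6.47 FPKM in WT and 5.12 in KO, a ratio whose interval included 1 (1.26-fold lower, 0.910 to 1.76). Both Slamf1 values rest on few fragments, an estimated 83.2 and 71.3.

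Sh2d1a, which encodes the adaptor SAP, had 126.8 (WT) and 159 (KO) FPKM among iNKT cells and 65.9 (WT) and 59.8 (KO) among CD44hi cells, so both iNKT libraries were above both CD44hi libraries. It had the highest FPKM of the 9 genes in both iNKT libraries, by less than its counting interval over Ly9 in WT and Slamf6 in KO, and stood above 96.1% (WT) and 97.1% (KO) of the genes at 1 FPKM or more. It was 1.25-fold higher in KO than in WT iNKT (1.11 to 1.42) and 1.10-fold lower in KO than in WT CD44hi (1.01 to 1.20), within 2-fold in both. Fyn, the Src family kinase that SAP recruits, had 119.2 (WT) and 98.8 (KO) FPKM among iNKT cells and 167 (WT) and 128.3 (KO) among CD44hi cells, lower in KO by 1.21-fold in iNKT (1.13 to 1.29) and 1.30-fold in CD44hi (1.27 to 1.34). Both genes thus stayed within 2-fold between genotypes. Sh2d1a exceeded Fyn by a ratio of 1.06 in WT iNKT and 1.61 in KO iNKT, and was below it at 0.394 and 0.466 in WT and KO CD44hi.

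**Figure D2:**
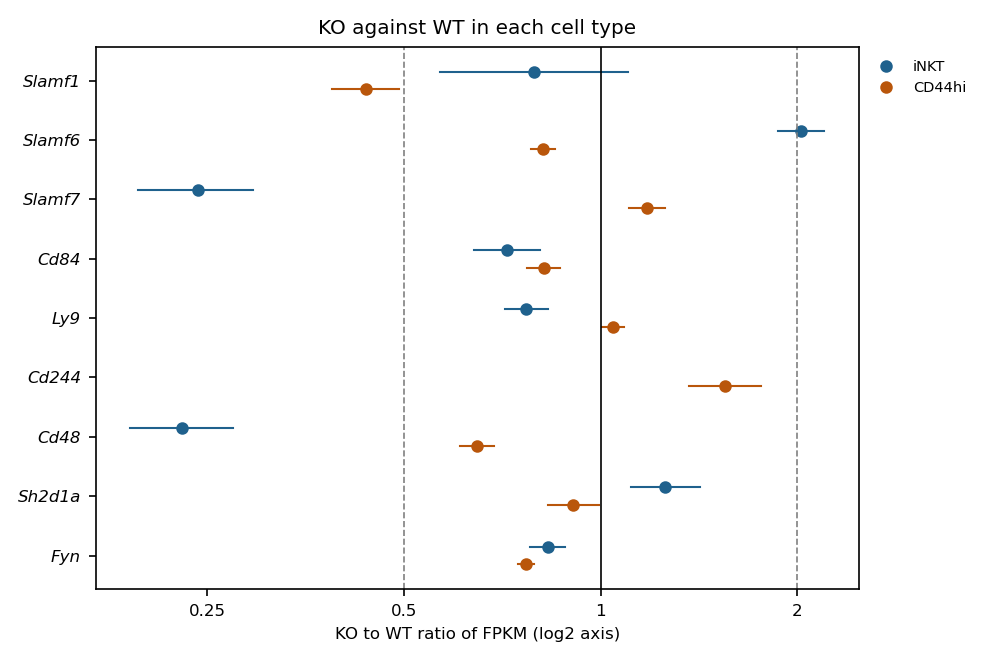
Ratio of KO to WT FPKM (x axis, log2 scale) for each gene in iNKT cells (blue) and CD44hi cells (orange), with 95% exact counting intervals as lines; dashed lines mark 2-fold and Cd244 has no iNKT point because it was not measured there. In iNKT cells Cd48 and Slamf7 lie left of 0.25 and Slamf6 at 2.03, while in CD44hi cells Slamf1 alone, at 0.437, is beyond a dashed line.

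In CD44hi cells Slamf1 was the 1 member of 9 measured past the rule, and it was lower in KO. Of all 11353 genes measured in this pair, 3.58% passed the rule, 2.44% higher and 1.14% lower. Slamf1 was at 16.2 FPKM in WT CD44hi and 7.08 in KO CD44hi, 2.29-fold lower (2.04 to 2.58), a log2 difference of -1.09. The KO CD44hi level was within counting error of WT iNKT (ratio 1.09, 0.866 to 1.40). WT CD44hi stood alone at the top. Cd48 was 1.55-fold lower in KO CD44hi (1.46 to 1.64), the same direction as in iNKT cells but within 2-fold. Slamf6 was 1.22-fold lower (1.17 to 1.28) and Slamf7 1.18-fold higher (1.10 to 1.25). The members' median log2 difference was -0.28, against 0.01 over all measured genes.

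The genotype difference was set side by side in the 2 cell types by subtracting the CD44hi log2 difference from the iNKT one. It reached 1 in size for 3 of the 9 members, Slamf7 (-2.11), Cd48 (-1.46) and Slamf6 (1.30). Of the 11717 genes that reached 1 FPKM anywhere, 11.5% had that size. With 1 library per group this difference was not tested.

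RNA of cell subset markers differed between the same libraries and is given beside these values. The 8 markers of the interferon-producing iNKT subset (NKT1), among them Tbx21, were all at least 2-fold lower in KO iNKT, with summed FPKM of 2770 in WT and 639 in KO iNKT. Of 8 measured follicular helper markers, 6 were higher in KO iNKT (summed FPKM 155.7 and 536). Of 8 markers of the subset that makes IL-4 (NKT2), 4 were higher and 1 lower in KO iNKT. Of all measured genes in that pair, 6.08% were higher and 3.35% lower. In the CD44hi pair, where 1.14% of all measured genes were lower, 5 of 8 regulatory T cell markers and 5 of 9 follicular helper markers were lower in KO, with sums of 430 and 180 FPKM for the first list and 347.5 and 189.7 for the second. In the same pair, 3 of 7 measured NKT2 markers were higher in KO and 0 lower, where 2.44% of all measured genes were higher. Of 8 NKT1 markers, 1 was lower there and 0 higher. The part of these subsets, and of the sexes, in the Slamf7, Cd48, Slamf6 and Slamf1 differences was not tested.

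Some genes of the factor families that bind the motifs marked above differed between the iNKT libraries and others did not pass the rule. Tbx21, the T-box factor T-bet, had 70.4 (WT) and 19.5 (KO) FPKM among iNKT cells and 27.3 (WT) and 37.3 (KO) among CD44hi cells. Runx3, a RUNX factor of effector T cells, had 24.8 (WT) and 10.7 (KO) FPKM among iNKT cells and 30.0 (WT) and 31.3 (KO) among CD44hi cells. Eomes, another T-box factor, was listed at 0 in WT iNKT and had 3.90 FPKM in KO iNKT. Tcf7, a TCF factor, had 159 (WT) and 558 (KO) FPKM among iNKT cells. Eomes and Tcf7 were thus higher in KO iNKT, whereas Cd48, whose window held T-box and TCF motifs, was lower. Myb, which thymocytes need to express SLAM receptors and SAP for iNKT selection, had 7.04 (WT) and 56.6 (KO) FPKM among iNKT cells, 8.03-fold higher in KO (6.69 to 9.76), and 10.3 (WT) and 20.9 (KO) among CD44hi cells, 2.03-fold higher (1.85 to 2.22) but within the rule on the log2(FPKM + 1) scale. Among the 18 selection regulators, 8 were higher in KO iNKT, beside 6.08% of all measured genes (Egr1, Egr2, Egr3, Zbtb16, Myb, Hivep3, Eomes and Tcf7), while Tbx21 and Runx3 were among those lower. In KO CD44hi Zbtb16 was the 1 regulator of the list that was higher. Ets1, the listed ETS factor, had 336 (WT) and 306 (KO) FPKM among iNKT cells, and Runx1, another RUNX factor, had 26.8 (WT) and 19.9 (KO), both within 2-fold. Cd1d1, the lipid-presenting molecule itself, was at 14.2 to 19.2 FPKM in all 4 libraries.

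**Figure D3:**
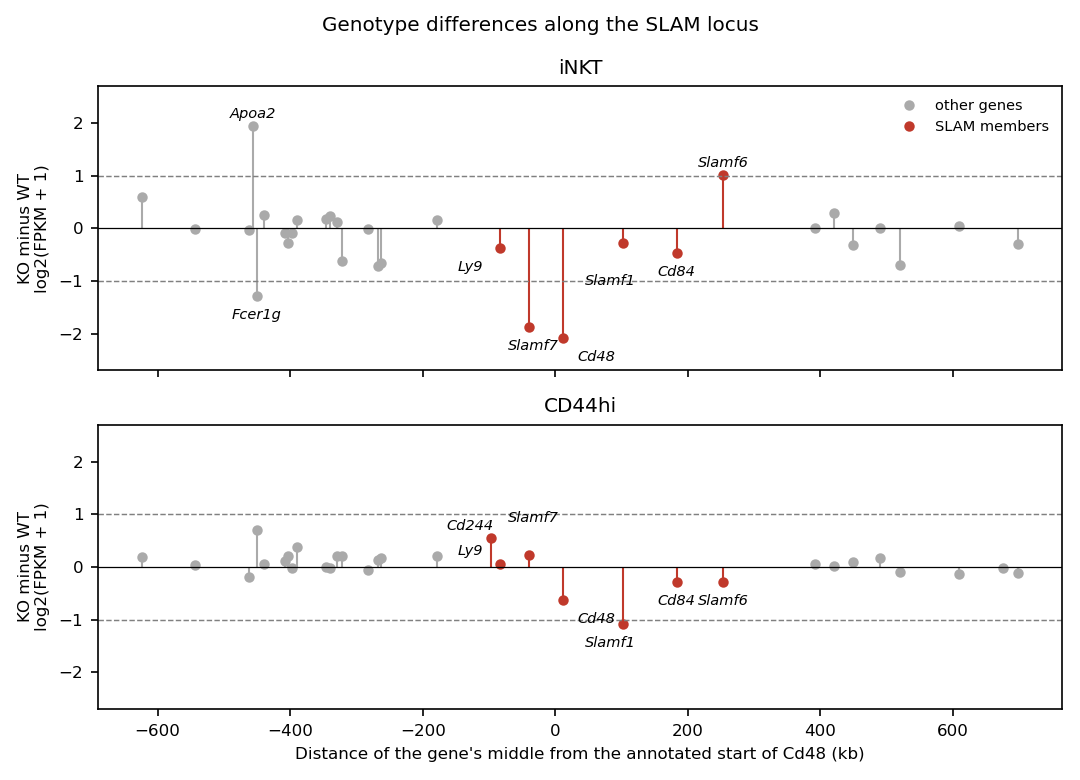
KO minus WT difference of log2(FPKM + 1) (y axis) for the measured genes within 500 kb of the receptor genes, placed by distance from the start of Cd48 (x axis, kb), in iNKT (top) and CD44hi (bottom); red points are the SLAM receptors, grey points other genes, and dashed lines mark 2-fold. In iNKT cells Slamf7 and Cd48 point down and Slamf6 up, and in CD44hi cells Slamf1 is the 1 gene past a dashed line.

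Along the chromosome, the KO iNKT value lay below the WT one for 5 neighbouring receptor genes, 2 of them past the rule. It lay above for the gene at the end of the row. Log2 differences of KO from WT were -0.37 for Ly9, -1.88 for Slamf7, -2.09 for Cd48, -0.29 for Slamf1 and -0.46 for Cd84, then 1.01 for Slamf6. Of these, Slamf7, Cd48 and Slamf6 passed the rule, and the interval of Slamf1 alone included no difference. Of 25 other genes measured within 500 kb in the iNKT pair, 1 was higher and 1 lower, which is near the share of 9.43% over all measured genes. Apoa2, an apolipoprotein gene, was listed at 0 in WT and at 2.82 FPKM in KO, and Fcer1g, a signalling chain of NK and myeloid cells, was at 7.25 in WT and 2.37 in KO. The median log2 difference of the 25 was -0.01, against -0.42 over the 6 measured receptors. In the CD44hi pair 0 of 25 other genes passed the rule in either direction, beside a share of 3.58% over all measured genes, with a median of 0.05.

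Between the cell types, Sh2d1a had higher levels in iNKT cells in both genotypes, past the rule in KO only, and Cd244 was almost absent from iNKT cells. In WT, 2 of 9 members were lower in iNKT than in CD44hi (Cd244 and Slamf1) and 0 higher, where 14.6% of all 11218 measured genes passed the rule (3.65% higher, 10.9% lower). In KO, 3 of 9 were lower in iNKT (Cd244, Slamf7 and Cd48) and 1 was higher (Sh2d1a), where 12.1% of 11470 genes passed it (3.02% higher, 9.07% lower). These comparisons use the same libraries as the genotype comparisons and are no separate evidence. Sh2d1a was 1.92-fold higher in WT iNKT than in WT CD44hi (1.72 to 2.15; log2 difference 0.93, inside the rule) and 2.66-fold higher in KO iNKT than in KO CD44hi (2.41 to 2.93). Inside the rule, Ly9 was 1.24-fold higher in iNKT cells in WT (1.17 to 1.32) and 1.09-fold lower in KO (1.02 to 1.16). Slamf6 was 1.27-fold lower in WT and 1.96-fold higher in KO (1.86 to 2.07), and the latter passed the rule when libraries were rescaled to CD3 chain RNA. Fyn was lower in iNKT cells by 1.40-fold in WT (1.34 to 1.47) and 1.30-fold in KO (1.24 to 1.37). Slamf1 was 2.51-fold lower in WT iNKT, a ratio of 0.399 (0.313 to 0.499), and the KO ratio of 0.723 lay inside the rule. Depth and cell type cannot be told apart in these comparisons, since both CD44hi libraries were the deeper ones.

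**Figure D4:**
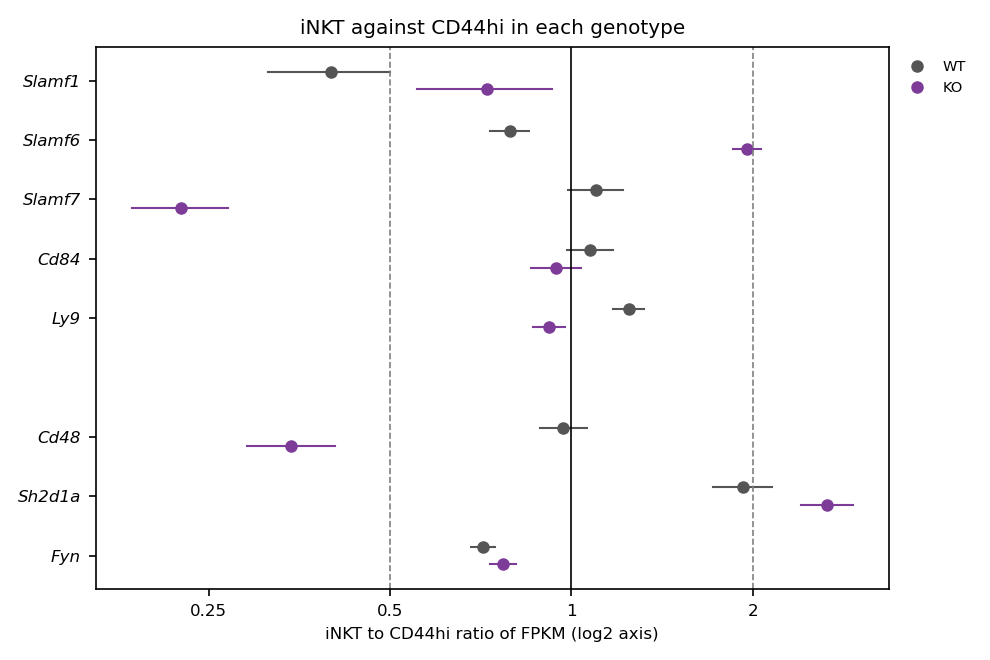
Ratio of iNKT to CD44hi FPKM (x axis, log2 scale) for 8 genes in WT (grey) and KO (purple), with 95% exact counting intervals as lines and 2-fold as dashed lines; Cd244 is left out because its iNKT values rest on about 1 and 2 fragments. Sh2d1a lies at 1.92 and 2.66, and Slamf7 and Cd48 lie near 1 in WT (1.10 and 0.969) but left of 0.5 in KO (0.225 and 0.343).

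Cd244 (2B4), the receptor for Cd48 on NK cells and some T and myeloid cells, had 0.0545 (WT) and 0.101 (KO) FPKM among iNKT cells, which correspond to an estimated 0.995 and 1.99 fragments. Among CD44hi cells it had 5.46 (WT) and 8.47 (KO) FPKM and was 1.55-fold higher in KO (1.37 to 1.76). The WT CD44hi to WT iNKT ratio was 100.3 (interval 17.8 to 3955). The counting intervals of the iNKT values reached up to 0.305 FPKM in WT and 0.366 in KO, so lower levels of Cd244 could not be told apart at this depth.

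Family members and partners that were not chosen are given next. Which cells their RNA came from was not tested. Slamf8 and Slamf9, receptors of myeloid and dendritic cells, were listed at 0 in both iNKT libraries. Among CD44hi cells Slamf8 had 6.00 (WT) and 7.12 (KO) FPKM and Slamf9 had 1.28 (WT) and 8.27 (KO), so that Slamf9 was 6.45-fold higher in KO (4.33 to 9.87). Sh2d1b1, which encodes the SAP relative EAT-2, had 0.472 FPKM in WT iNKT cells, was listed at 0 in KO ones, and had 3.25 (WT) and 4.50 (KO) FPKM among CD44hi cells, with Sh2d1b2 at 0.538 or less in all 4. Cd2, the other receptor for Cd48 in mice and a T cell antigen, had 165.5 (WT) and 63.3 (KO) FPKM among iNKT cells, 2.62-fold lower in KO, and 394 (WT) and 217 (KO) among CD44hi cells, a ratio of 0.551.

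B cell and myeloid markers summed, like Cd244, Slamf8, Slamf9 and Sh2d1b1, to higher levels in both CD44hi libraries than in the iNKT ones. Summed regulatory T cell and CD8 markers had the same order. The first had 135 (WT) and 119 (KO) FPKM among iNKT cells and 430 (WT) and 180 (KO) among CD44hi cells. The second had 0.958 (WT) and 0.316 (KO) FPKM among iNKT cells and 11.2 (WT) and 17.1 (KO) among CD44hi cells. Summed plasmacytoid dendritic and NK cell markers were higher in CD44hi cells in KO only, though most of the plasmacytoid markers were higher in WT too. The 10 B cell markers summed to 1.88 (WT) and 4.13 (KO) FPKM among iNKT cells, where 6 and 4 of them were listed at 0, and to 49.2 (WT) and 85.8 (KO) among CD44hi cells. The 13 myeloid markers summed to 25.6 (WT) and 17.9 (KO) FPKM among iNKT cells and 279 (WT) and 326 (KO) among CD44hi cells, with Itgax at 0 in KO iNKT. The 10 plasmacytoid dendritic cell markers summed to 162 (WT) and 129 (KO) FPKM among iNKT cells and 160 (WT) and 612 (KO) among CD44hi cells. Of these, 8 were higher in KO than in WT CD44hi, and Siglech and Klk1, which define these cells, were listed at 0 in both iNKT libraries. In WT, 7 of the 10 were lower in iNKT than in CD44hi, beside 10.9% of all measured genes, such as Siglech (0 and 11.1 FPKM). Ccr9 was the 1 that was higher (41.0 and 7.91 FPKM). The near-equal WT sums rest largely on Bst2, at 101 FPKM in WT iNKT and 64.1 in WT CD44hi. The 10 NK cell markers, several of which iNKT cells also express, summed to 413 (WT) and 261 (KO) FPKM among iNKT cells and 278 (WT) and 581 (KO) among CD44hi cells. Between the iNKT libraries 5 of 9 measured were lower in KO (Klrd1, Klre1, Prf1, Fcer1g and Tyrobp) and 3 higher (Klra8, Eomes and Gzma). Tyrobp and Fcer1g made up most of the CD44hi sums, and Ncr1, which defines NK cells, was at 1.42 (WT) and 0.565 (KO) FPKM there. The 10 red cell and platelet markers summed to 19.2 (WT) and 18.2 (KO) FPKM among iNKT cells and 151 (WT) and 727 (KO) among CD44hi cells, where all 5 measured were higher in KO, such as the hemoglobin gene Hba-a1. The part of these cells in the CD44hi levels of the members, Slamf1 included, several of which such cells can also express, was not tested. In the iNKT pair, beside the differences of Cd48, Slamf7 and Slamf6, no B cell marker but Vpreb3 reached 1 FPKM. Myeloid markers did, such as Cd68 at 8.18 (WT) and 5.35 (KO) FPKM. Of 8 myeloid markers measured in that pair, 1 was lower in KO (C1qc) and 0 higher, beside 3.35% and 6.08% of all measured genes. The part of such cells in the iNKT differences was not tested.

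**Figure D5:**
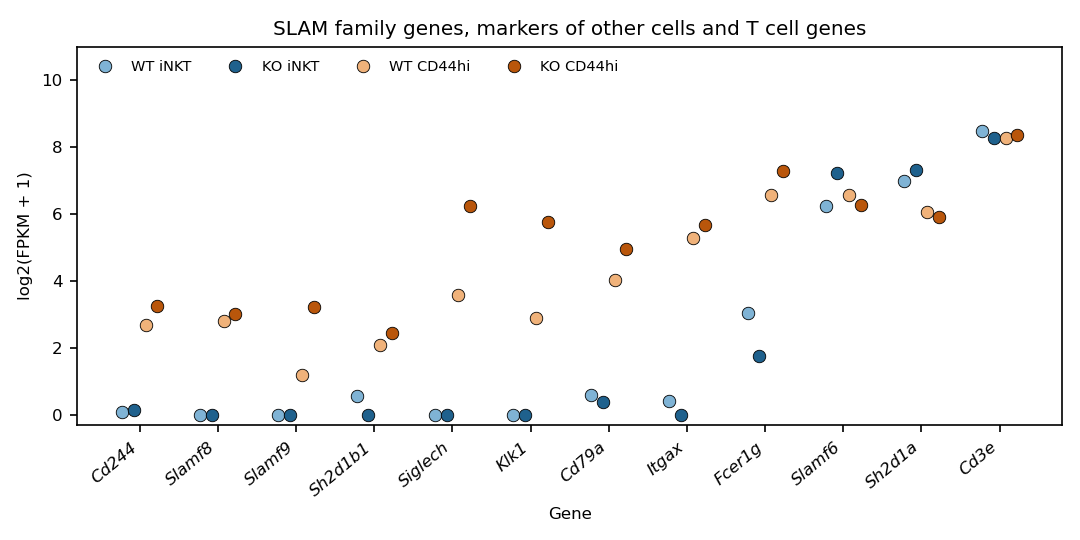
log2(FPKM + 1) (y axis) of Cd244, 3 related family genes, markers of plasmacytoid dendritic, B and myeloid cells, and 3 genes of T cells (x axis) in the 4 libraries; each point is 1 library. Cd244, Slamf8 and Slamf9 sit at or near 0 in both iNKT libraries, as do Siglech and Klk1, whereas Slamf6, Sh2d1a and Cd3e are high in all 4.

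Genes that act with SAP and Fyn passed the rule about as often as genes at large, which was 9.43% in the iNKT pair and 3.58% in the CD44hi pair. Of 18 genes downstream of SAP and Fyn, such as Prkcq (protein kinase C theta, 88.8 to 112 FPKM over the libraries) and Vav1 (40.3 to 50.7), 0 passed the rule in either genotype comparison. Of the Src family kinases and their controls, 1 of 11 measured in the iNKT pair was higher in KO and 0 of 14 passed the rule in the CD44hi pair. The 1 was Lyn, a Src kinase of B and myeloid cells, with 0.971 (WT) and 7.25 (KO) FPKM among iNKT cells and 16.9 (WT) and 26.2 (KO) among CD44hi cells. Lck, the main Src kinase of T cells, had 361 (WT) and 346 (KO) FPKM among iNKT cells and 397 (WT) and 314 (KO) among CD44hi cells. Among the 4 phosphatases that SLAM receptor tails can recruit, Ptpn6, which encodes SHP-1, was 2.37-fold higher in KO iNKT (2.20 to 2.55; 96.4 to 228 FPKM). Ptpn11, which encodes SHP-2, was 2.10-fold lower in KO CD44hi (43.7 to 20.9 FPKM). Inpp5d (SHIP-1) stayed at 42.2 to 52.5 FPKM and Inppl1 at 9.05 to 12.4.

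For the 6 members whose log2(FPKM + 1) spanned at least 1, the 3 genes with the most similar profile over the 4 libraries were sought among 8309 genes, by Euclidean distance between centred profiles. Nearest to Slamf6 were Mrps6, Btla and Ncaph (distances 0.07, 0.09 and 0.12). Btla, an inhibitory receptor of lymphocytes, had 36.4 (WT) and 70.4 (KO) FPKM among iNKT cells and 46.9 (WT) and 38.7 (KO) among CD44hi cells. Nearest to Cd48 were Gna15, Smad7 and Ifngr1 (0.14, 0.18 and 0.27). Ifngr1, a chain of the interferon gamma receptor, had 91.8 (WT) and 23.3 (KO) FPKM among iNKT cells and 82.6 (WT) and 66.2 (KO) among CD44hi cells. Nearest to Slamf7 were Camk2b, Fgf13 and Ern1 (0.22, 0.23 and 0.26), and nearest to Slamf1 were Stx11, Crip1 and Galm (0.15, 0.28 and 0.29). Phlda1, H2afz and Sft2d1 were nearest to Sh2d1a (0.13, 0.15 and 0.19), and Gpr35, Fcgrt and Cfp to Cd244 (0.12, 0.14 and 0.16). With 4 libraries such a likeness is a description and many profiles can match.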

How the data were processed

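Total RNA (TRIzol, then Picopure columns) went into the TruSeq RNA v2 kit, per the labels' protocols. For each library the deposited file lists symbols beside FPKM, per the file headers. The build mm10 and the tools TopHat 1.3.2, Cufflinks 2.0.2 and Bowtie2 2.0.0 are named without roles, per the submitters' processing notes; the annotation, filters and strand setting are not given in the sources used here.

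Here, 26 symbols turned into dates or numbers and 779 small RNA symbols were left out, and rows of 240 repeated symbols were summed. The value of 1 fragment came from the lowest pile of FPKM times effective length (length less 150 bases) over genes with 1 GENCODE M21 transcript of at least 2000 bases; member lengths came from the longest transcript linked to RefSeq. Of low values worth up to about 5 fragments, 72.5% to 76.0% lay within 0.15 of a whole fragment. The CD44hi libraries were thus 3.69 and 4.90 times as deep as WT iNKT (KO iNKT 1.08), and intervals are exact (Clopper-Pearson). Groups came from the sample titles. The labels do not name the mice, and 1 library per group allows no test.

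Every list gene at 2-fold in a genotype comparison, a few fixed genes and the 3 nearest profiles per member were to be named; Src kinase, regulator, locus and marker genes beyond those were named as examples after their values were seen. A gene of the regulator list is not reported here. The members and lists were chosen with earlier results of these data known, and the promoter motifs after the member values were seen. Calls and intervals were run on simulated counts with planted changes and counting error only. Such counts cannot check variation between animals or the estimated value of 1 fragment. Alternatives were another pseudocount, fold or FPKM minimum, and 2 rescalings. Python 3.11.15, pandas 2.3.3 and scipy 1.17.1 were used.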

Additional observations from a re-analysis of the deposited data

Results flagged for a closer look

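2 members differed in opposite directions between genotypes in the 2 cell types, with 1 of the directions past the 2-fold rule. Slamf6 had a KO minus WT log2 difference of 1.01 in iNKT cells and -0.29 in CD44hi cells. Slamf7 had -1.88 in iNKT cells and 0.23 in CD44hi cells. Each direction rests on 1 library per group, so the difference between the cell types was not tested.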

How the results depend on the processing

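The number of members past the rule changed by more than 1.5 times under 1 of the alternatives tried: with calls at 1.5-fold, 2 members rather than 1 were lower in KO CD44hi, Slamf1 and Cd48. In KO against WT iNKT 2 or 3 members passed under all 6 alternatives, and Slamf6 lost its call under both rescalings. In WT iNKT against WT CD44hi 2 or 3 passed and in KO iNKT against KO CD44hi 4 or 5. The same 3 members (Slamf6, Slamf7 and Cd48) had unlike genotype differences in the 2 cell types under the other pseudocount of 0.1 and both rescalings. Of 135 member values recomputed, 4 changed sign, none past 2-fold and all under the rescaling to CD3 chain RNA (Ly9 in 2 comparisons, Cd84 and Cd48, each at most 0.12 in size). That rescaling moved the median log2 difference of all genes from 0.01 to -0.09 in KO against WT CD44hi and from -0.02 to 0.12 in KO iNKT against KO CD44hi. No paired analysis was possible because each group has 1 library, and no library could be left out. Depth limits Cd244 and Slamf1 in iNKT cells, which rest on about 1 to 83.2 estimated fragments.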
